A study of Mus musculus with 6 samples.

Results

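The MYC network genes were 10 genes taken by name, MAX, the factors that pair with it in the MYC and MXD families, MNT and MGA: *Myc*, *Mycn*, *Mycl*, *Max*, *Mga*, *Mnt*, *Mxd1*, *Mxd3*, *Mxd4* and *Mxi1*, and all 10 were found by name among the 54532 genes of the deposited table. RNA-seq had been done on LSK cells, bone marrow cells without lineage markers but with Sca1 and c-Kit, among which HSPCs are found, in 3 control (CTRL) and 3 *Myh9* knockout (cKO) libraries. CTRL mice were Myh9fl/fl;no cre littermates and cKO mice were Myh9fl/fl;Mx1-cre. All mice were C57BL/6, were genotyped at 4 to 5 weeks of age and received poly I:C at 5 mg/kg, so CTRL mice carried the floxed allele and the interferon stimulus as well. Cre is driven in this model by the interferon-inducible *Mx1* promoter, which is active in other tissues than blood. LSK cells (100000 for each preparation) were sorted 4 days after the first injection. The labels do not say how many mice were behind a library, so p-values measure the spread between 3 libraries a group, which may be partly technical.

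MAX is the common partner of this network. MYC, MYCN and MYCL are bHLH leucine zipper factors that bind E-boxes as heterodimers with MAX and activate genes of growth, ribosome production and metabolism. The MXD proteins (MXD1, MXD3, MXD4 and MXI1) and MNT compete for MAX and for the same sites, and recruit the SIN3-HDAC corepressor. MGA also pairs with MAX and belongs to a noncanonical polycomb complex, PRC1.6. In hematopoiesis, MYC activity is linked to the exit of HSCs from dormancy and the niche, and MXD genes to differentiation and the end of proliferation.

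Levels are in FPKM, which divides the fragments of a gene by its length and by the size of the library, with the mean ± SD of 3 libraries. Each library held 17571544 to 19894562 reads on genes. *Myh9* itself measured 22.5 ± 0.495 FPKM in CTRL and 18.7 ± 1.18 FPKM in cKO LSKs (n = 3 each). Every cKO library lay below every CTRL library, as for 28.5% of all genes tested. The mean changed by -17.1% (log2 fold change -0.26, adjusted p = 0.00642, limma), so most *Myh9* RNA was still present in cKO LSKs. The LSK markers *Kit*, *Ly6a* and *Cd34* were present in both groups, with mean FPKM of 23.9, 95.4 and 63.8 in CTRL and 21.5, 89.5 and 66.0 in cKO LSKs. Markers of other cells differed between the groups. All 11 tested of 14 erythroid markers were higher in cKO LSKs, while 11 of 12 tested neutrophil and monocyte markers (14 in the list) were lower. Of all genes tested, 19.9% were higher and 20.6% lower.

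To show the DNA next to these genes, promoter sequences from RefSeq (GRCm38.p6) were searched over 250 bases before to 50 bases after each annotated start. Of the 10 genes, 9 had an entry, with 11 start sites in all, and *Myc* had none. The canonical E-box, CACGTG, reads the same on both strands and was found in the promoters of *Mnt*, *Mxd4* and *Max*, 3 of these 11 promoters. It was present in 7.15% of all 32851 promoters in the table. The sequences run 5′ to 3′ in the direction of the gene, up to the base before the start, or to the end of the E-box where it spans the start, as in *Max*. Capitals mark the E-box in *Mnt* (chr11:74830674-74830923, plus strand), *Mxd4* (chr5:34187711-34187960, minus strand) and *Max* (chr12:76962246-76962498, minus strand), and E2F-type motifs in *Mycn* (chr12:12941837-12942086, minus strand).
Mnt: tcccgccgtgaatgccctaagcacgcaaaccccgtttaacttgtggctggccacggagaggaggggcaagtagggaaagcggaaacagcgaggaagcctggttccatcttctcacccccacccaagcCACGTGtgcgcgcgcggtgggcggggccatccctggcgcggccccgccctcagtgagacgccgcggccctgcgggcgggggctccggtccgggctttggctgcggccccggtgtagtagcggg
Mxd4: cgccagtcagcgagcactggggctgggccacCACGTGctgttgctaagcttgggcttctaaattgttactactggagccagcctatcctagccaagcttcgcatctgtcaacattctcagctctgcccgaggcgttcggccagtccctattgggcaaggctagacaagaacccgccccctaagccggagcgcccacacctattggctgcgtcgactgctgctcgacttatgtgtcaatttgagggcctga
Max: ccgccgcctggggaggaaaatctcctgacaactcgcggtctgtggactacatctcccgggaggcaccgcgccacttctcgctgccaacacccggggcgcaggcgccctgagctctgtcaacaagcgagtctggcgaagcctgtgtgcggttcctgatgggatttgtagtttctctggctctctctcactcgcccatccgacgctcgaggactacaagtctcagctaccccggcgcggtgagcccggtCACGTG
Mycn: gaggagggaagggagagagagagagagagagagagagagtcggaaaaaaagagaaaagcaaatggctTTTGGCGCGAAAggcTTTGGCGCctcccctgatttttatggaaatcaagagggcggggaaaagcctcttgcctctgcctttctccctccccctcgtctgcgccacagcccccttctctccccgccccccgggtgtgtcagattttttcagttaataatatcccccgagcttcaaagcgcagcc
The E-box began 123 bases before the start in *Mnt*, 219 in *Mxd4* and 3 in *Max*. In *Mycn*, the E2F-type motif TTTGGCGC was found 183 and 168 bases before the start and TTTCGCGC, on the other strand, at 179 bases, where it overlaps the first of them. Of all promoters, 0.514% held TTTGGCGC and 0.323% held TTTCGCGC on either strand. Another E2F-type motif, TTTCCCGC, was in none of the 11 promoters, nor were the CRE motif TGACGTCA or the AP-1 motif TGACTCA, which 1.07%, 1.79% and 5.20% of all promoters held. The FOXO motif GTAAACA was in 1 of the 3 *Mxi1* promoters, 231 bases before that start, and in 3.65% of all promoters. These matches describe letters in a window and do not show that a factor was bound.

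*Mycn* was higher in cKO LSKs, and 4 genes of the repressor arm, *Mxd1*, *Mxi1*, *Mnt* and *Mxd4*, were lower, while *Myc* did not pass the test and had a narrow interval around 0. The two-sided limma test used log2(FPKM + 1) of the 11552 genes whose 6 libraries averaged 1 FPKM or more, with Benjamini-Hochberg adjustment across them. Of the 10 network genes, 9 passed this filter. At an adjusted p under 0.05, 1 was higher, where 19.9% of all genes tested were, and 4 were lower, where 20.6% of all genes tested were (40.5% in either direction). CTRL and cKO libraries were fully separate for 6 of the 9, 5 lower and 1 higher, and for 54% of all genes tested, 28.5% lower and 25.5% higher. The median log2 fold change was -0.069 over the 9 genes and -0.0096 over all genes tested. Fold changes give cKO relative to CTRL, and on this scale they understate the change of genes with low FPKM. For a single gene, the smallest p of an exact permutation test on 3 and 3 libraries is 0.1, so the adjusted p below come from limma.

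**Figure D1:**
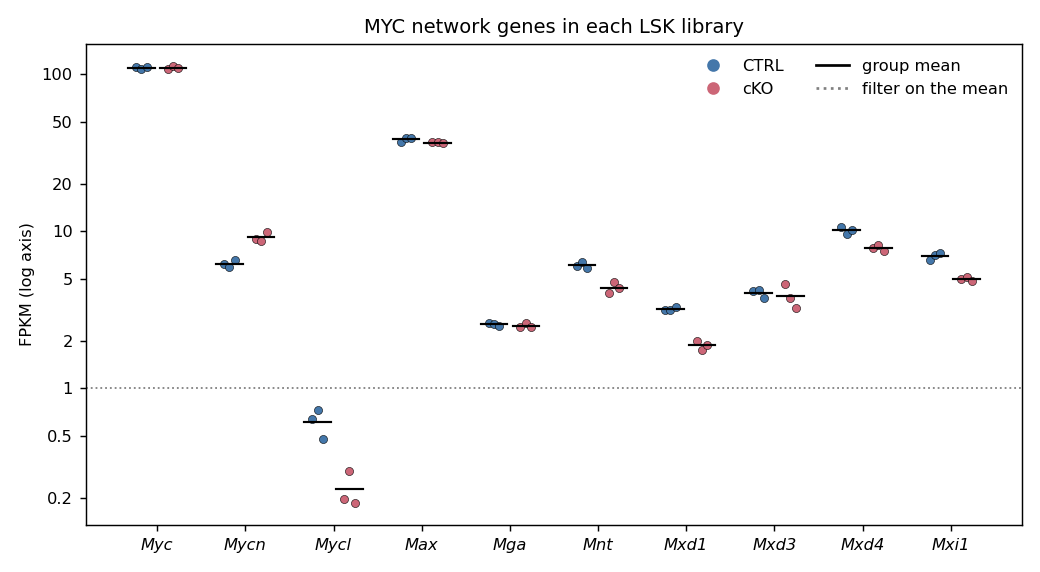
FPKM of the 10 MYC network genes (log axis) in each of 3 CTRL and 3 cKO libraries, with points for libraries and a line for each group mean; the dotted line marks the filter of 1 FPKM on the mean over 6 libraries. *Myc* lay near 110 FPKM in both groups, *Mycn* was higher in every cKO library, and *Mxd1*, *Mxd4*, *Mxi1*, *Mnt*, *Max* and *Mycl* were lower in every cKO library than in every CTRL library.

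Among the activating members, *Myc* (ENSMUSG00000022346, chromosome 15 from 61985391 to 61990374, plus strand, mm10) had by far the most RNA. It measured 111, 109 and 111 FPKM in the CTRL libraries and 109, 113 and 109 FPKM in the cKO libraries, from 5204 to 6003 reads a library. The groups overlapped, with group means of 110 ± 1.32 and 111 ± 2.54 FPKM. The log2 fold change was 0.0039 with a 95% interval from -0.059 to 0.067 (adjusted p = 0.920).

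*Mycn* (ENSMUSG00000037169, chromosome 12 from 12936093 to 12941914, minus strand), the paralogue that can stand in for *Myc* in HSCs, was the network gene that rose. Its level was 6.24, 5.92 and 6.58 FPKM in CTRL and 8.96, 8.64 and 9.96 FPKM in cKO libraries. No CTRL library reached the lowest cKO library, and the means, 6.25 ± 0.327 and 9.19 ± 0.692 FPKM, differed by 47.1%. The log2 fold change was 0.49 with a standard error of 0.063 (adjusted p = 0.00138), and 4.73% of all genes tested rose more. *Mycn* made up 5.14% to 5.58% of the summed FPKM of the 3 MYC genes in CTRL libraries and 7.06% to 8.36% in cKO libraries.

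*Mycl* (ENSMUSG00000028654, chromosome 4 from 122995652 to 123002485, plus strand) was the least abundant of the 10 and fell below the filter. It had 51, 52 and 37 reads in CTRL libraries and 15, 22 and 14 reads in cKO libraries. The groups did not overlap, and the means, 0.614 ± 0.128 and 0.228 ± 0.0618 FPKM, had a ratio of 0.371. The main test left it out. With limma's voom on the reads recovered from the FPKM values, where 19.6% of 13944 genes were lower at the same threshold and 41.9% passed in either direction, the log2 fold change of *Mycl* was -1.39 (adjusted p = 0.00193). Without the filter, where 8.1% of 24337 genes were lower and 17.1% passed in either direction, it was -0.39 on log2(FPKM + 1) (adjusted p = 0.0205).

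*Max* (ENSMUSG00000059436, chromosome 12 from 76937269 to 76962201, minus strand), the obligate partner, was second in level. It measured 37.1, 39.6 and 39.4 FPKM in CTRL and 37.0, 36.9 and 36.5 FPKM in cKO libraries. Each cKO library lay below every CTRL library, although CTRL replicate 1 and cKO replicate 1 were nearly level. The log2 fold change was -0.069 with a 95% interval from -0.15 to 0.011, and did not pass the test (adjusted p = 0.147), although it did after quantile normalization (log2 fold change -0.11, adjusted p = 0.0337).

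*Mxd1* (ENSMUSG00000001156, chromosome 6 from 86647042 to 86669161, minus strand), the founding MXD gene, which is linked to terminal differentiation of myeloid cells, had the largest fall of the 9 genes tested. Its level was 3.14, 3.17 and 3.29 FPKM in CTRL and 1.99, 1.75 and 1.89 FPKM in cKO libraries. The groups stood well apart, and the mean changed by -41.3%, from 3.20 ± 0.0761 to 1.88 ± 0.121 FPKM. The log2 fold change was -0.55 with a standard error of 0.059 (adjusted p = 7.1e-04), and 3.18% of all genes tested fell more.

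*Mxi1* (ENSMUSG00000025025, chromosome 19 from 53310506 to 53375810, plus strand), which encodes the MXD protein also called MXD2, measured 6.596, 7.05 and 7.25 FPKM in CTRL and 4.95, 5.13 and 4.84 FPKM in cKO libraries. Every cKO library was lower than every CTRL library, and the mean changed by -28.6% (log2 fold change -0.41 with SE 0.049, adjusted p = 0.00101). *Mxd4* (ENSMUSG00000037235, chromosome 5 from 34173883 to 34187720, minus strand), the most abundant repressor gene of the network, measured 10.6, 9.61 and 10.2 FPKM in CTRL and 7.87, 8.24 and 7.46 FPKM in cKO libraries. Again the groups did not overlap, and the mean changed by -22.6% (log2 fold change -0.33 with SE 0.053, adjusted p = 0.00337).

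*Mnt* (ENSMUSG00000000282, chromosome 11 from 74830920 to 74845725, plus strand) encodes the MAX partner that is expressed most widely among the repressors and restrains MYC in dividing cells. It measured 5.99, 6.36 and 5.87 FPKM in CTRL and 4.03, 4.74 and 4.37 FPKM in cKO libraries. The groups did not overlap, and the mean changed by -27.9% (log2 fold change -0.40 with SE 0.063, adjusted p = 0.00321). The neighbouring genes were read beside it. *Mettl16*, 2395 bases to the left, differed by 0.19 on the log2 scale (adjusted p = 0.0324) and *Sgsm2*, 3536 bases to the right, by -0.045 (adjusted p = 0.712).

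*Mxd3* and *Mga* did not pass the test. *Mxd3* (ENSMUSG00000021485), which is expressed in S phase in proliferating progenitors, measured 4.16, 4.24 and 3.78 FPKM in CTRL and 4.62, 3.77 and 3.27 FPKM in cKO libraries. The cKO libraries lay on both sides of the CTRL libraries, and the 95% interval of the log2 fold change, -0.31 to 0.19, was the widest of the 9 (adjusted p = 0.687). *Mxd3* overlaps *Prelid1*, a gene on the opposite strand with 108 ± 4.34 FPKM in CTRL, and whether strand was used in counting is not given in the sources used here, so the value of *Mxd3* is uncertain. *Mga* (ENSMUSG00000033943), the longest of the 10 genes with 15340 bases, measured 2.61, 2.58 and 2.51 FPKM in CTRL and 2.46, 2.60 and 2.45 FPKM in cKO libraries. The groups overlapped (log2 fold change -0.027, 95% interval from -0.16 to 0.10, adjusted p = 0.724).

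**Figure D2:**
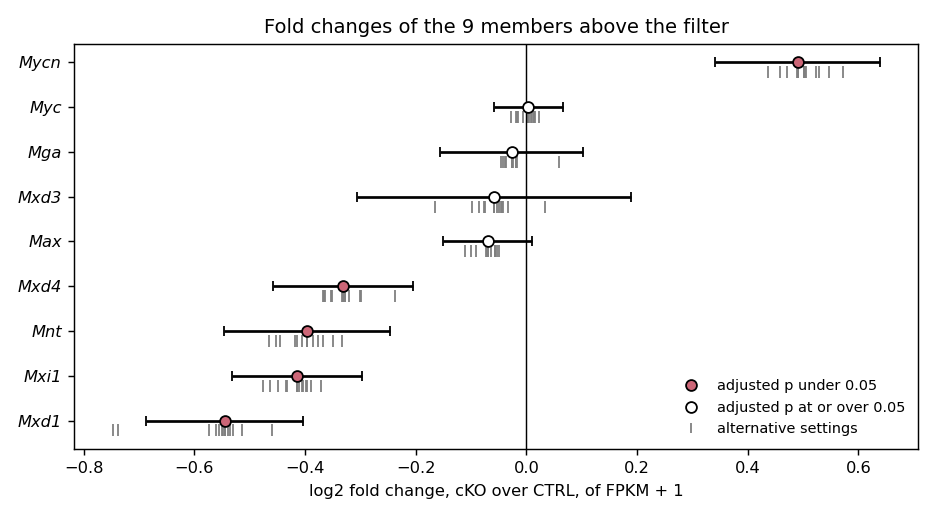
Log2 fold change of FPKM + 1, cKO over CTRL, for the 9 members tested with limma; points are estimates, bars 95% intervals, filled points have an adjusted p under 0.05, and grey ticks are the estimates under the alternative settings. *Mycn* (0.49) lay to the right of 0 and *Mxd1* (-0.55), *Mxi1* (-0.41), *Mnt* (-0.40) and *Mxd4* (-0.33) to the left in every setting, while the intervals of *Myc*, *Mga*, *Mxd3* and *Max* included 0.

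In order of FPKM, CTRL LSKs had *Myc*, *Max*, *Mxd4*, *Mxi1*, *Mycn*, *Mnt*, *Mxd3*, *Mxd1*, *Mga* and *Mycl*. In cKO LSKs *Mycn* moved from place 5 to place 3, above *Mxd4*, and *Mxd1* from place 8 to place 9, below *Mga*. Neighbours in this order whose libraries overlapped were *Mycn* and *Mnt* in CTRL and *Mnt* and *Mxd3* in cKO LSKs, so the order within these pairs is not settled. *Mxi1* and *Mycn* in CTRL did not overlap, with 6.596 FPKM in the lowest *Mxi1* library and 6.578 FPKM in the highest *Mycn* library. The ratio of *Myc* to *Max* FPKM was 2.743 to 2.999 in CTRL and 2.94 to 3.08 in cKO libraries, which overlapped.

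Summed over the 3 MYC genes, the level was 118, 115 and 118 FPKM in CTRL and 118, 122 and 119 FPKM in cKO libraries. Summed over the 5 repressor genes (*Mxd1*, *Mxd3*, *Mxd4*, *Mxi1* and *Mnt*), it was 30.5, 30.4 and 30.4 FPKM in CTRL and 23.5, 23.6 and 21.8 FPKM in cKO libraries. The MYC sums of the groups met closely, with 118.0 FPKM in the highest CTRL and 118.2 FPKM in the lowest cKO library, and the repressor sums lay far apart. The ratio of MYC family to repressor FPKM within a library was 3.85 ± 0.0478 in CTRL and 5.23 ± 0.218 in cKO LSKs. The ratio of *Max* to repressor FPKM was 1.21 to 1.30 in CTRL and 1.56 to 1.67 in cKO libraries. The members of these sums were grouped by role with earlier results of these data known, so the ratios are a description, and they compare RNA, not protein or dimers.

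**Figure D3:**
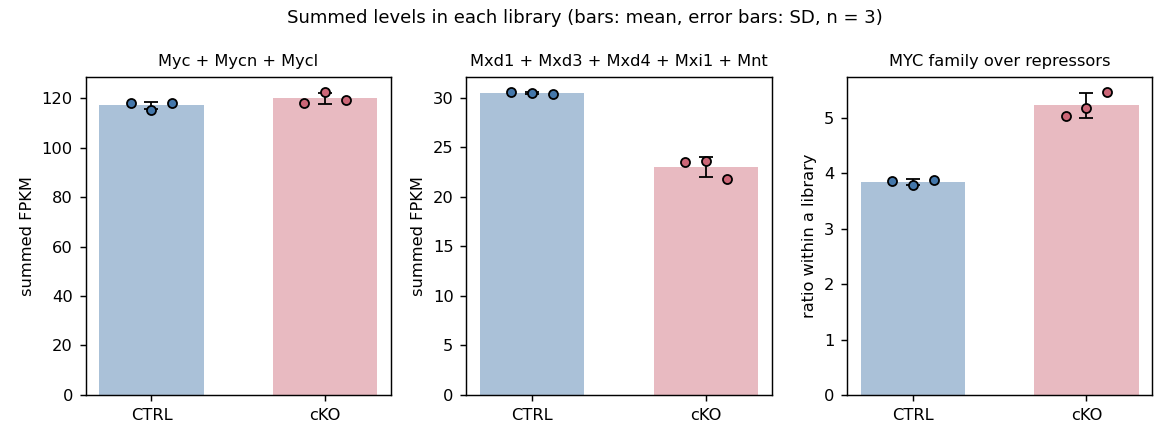
Summed FPKM of *Myc*, *Mycn* and *Mycl* (left), of *Mxd1*, *Mxd3*, *Mxd4*, *Mxi1* and *Mnt* (middle), and their ratio within each library (right); bars are means, error bars SD over 3 libraries, points libraries, and axes start at 0. The MYC sum was 117 FPKM in CTRL and 120 FPKM in cKO on average, the repressor sum 30.4 and 23.0 FPKM, and the ratio 3.85 and 5.23.

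Gene length moved with direction in these libraries. Over quartiles of gene length, from a median of 959 bases to one of 8109.5 bases, the median log2 fold change of all genes tested went from 0.10 to -0.077, and the share of genes called lower from 9.35% to 28.0%. The 4 repressor genes that fell are 4627 to 8483 bases long. After removal of the GC and length trends from each library, an alternative chosen after seeing the data, their log2 fold changes were -0.46 (*Mxd1*), -0.37 (*Mxi1*), -0.33 (*Mnt*) and -0.24 (*Mxd4*), each with an adjusted p under 0.05, and that of *Mycn* was 0.50. *Mga*, longer than any of these, did not pass, and its log2 fold change went from -0.027 to 0.060 with those trends removed. The part of gene length in the changes of the members was not tested.

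**Figure D4:**
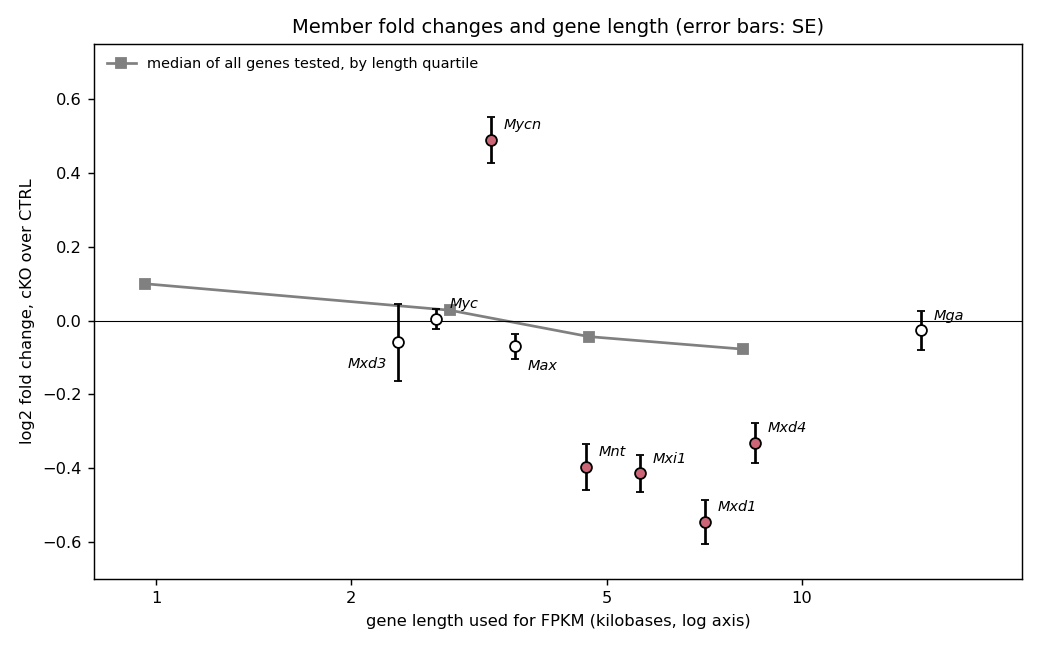
Log2 fold change of the 9 members tested, cKO over CTRL, against the gene length behind their FPKM (kilobases, log axis), with SE bars and filled points for an adjusted p under 0.05; grey squares are medians of all genes tested in each length quartile. The medians run from 0.10 to -0.077, and *Mxd1*, *Mxi1*, *Mnt* and *Mxd4* lie from -0.55 to -0.33, below the median of genes of like length.

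Transcription factor genes as a class were more often lower than higher. Of 686 tested genes that the deposited table places in a transcription factor family, 216 (31.5%) were lower and 48 (6.997%) higher. Of all genes tested, 20.6% were lower and 19.9% higher. Of the 26 tested bHLH genes other than network members, 8 were lower and 2 higher, and the median was -0.10 as a log2 fold change. The network's 4 lower and 1 higher of 9 stand beside these counts without a test. Immediate early genes are a class to which *Myc* is often assigned. Of 18 tested of 20 in the list, 16 were lower and none higher, beside 20.6% and 19.9% of all genes tested. The median was -0.85 as a log2 fold change, and the falls were led by *Atf3* (-2.37), *Nr4a1* (-1.81) and *Btg2* (-1.43).

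The targets and partners of the network were grouped in lists by role. Of 44 tested genes that MYC is known to activate (46 in the list), 33 were higher and 5 lower, beside 19.9% and 20.6% of all genes tested, and the median log2 fold change was 0.20. The largest rises were those of *Odc1*, the rate-limiting enzyme of polyamine synthesis (63.4 ± 1.47 to 96.4 ± 3.19 FPKM, log2 fold change 0.60), of *Tfrc*, the transferrin receptor (16.3 ± 0.676 to 23.9 ± 1.53 FPKM, 0.53), and of *Mrto4*, a factor of 60S ribosome assembly (35.4 ± 0.960 to 49.6 ± 1.74 FPKM, 0.48). The 5 that were lower included *Hk2*, a hexokinase of glycolysis (7.93 ± 0.459 to 5.94 ± 0.234 FPKM, -0.36), *E2f1*, a driver of S phase entry (-0.24), and *Cdc25a*, a phosphatase that activates CDKs (-0.17). With trends with GC content and length removed, 33 of the 44 were higher and 5 lower, although *Cdc25a* no longer passed (adjusted p = 0.0766). The count of lower genes was 3 without CTRL replicate 2, CTRL replicate 3 or cKO replicate 1. Many of these genes serve ribosome biogenesis, and *Tfrc* is also an erythroid gene. Erythroid markers summed to 593 to 598 FPKM in CTRL and 1032 to 1071 FPKM in cKO libraries. Globin RNA was low in CTRL. Mean FPKM rose from 3.65 in CTRL to 37.4 in cKO for *Hbb-bt*, 0.812 to 3.47 for *Hba-a1*, and 0.550 to 2.15 for *Hbb-bs*. *Hba-a2*, below the filter, was lower in cKO, with means of 0.213 FPKM in CTRL and 0.0274 FPKM in cKO. Of the 3 markers below the filter, *Alas2* had at most 0.108 FPKM in a library, *Slc4a1* at most 0.0822 FPKM and *Hba-a2* at most 0.255 FPKM. The part of these cells in the rises was not tested.

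Of 10 genes that MYC is known to repress, 7 were tested and 3 were below the filter. Of the 7, 5 were lower and none higher, beside 20.6% and 19.9% of all genes tested, and the median was -0.29 as a log2 fold change. The 5 were *Cdkn1a* (13.1 ± 1.33 to 8.64 ± 0.690 FPKM, log2 fold change -0.55) and *Cdkn1b* (-0.29), inhibitors of cyclin-dependent kinases, *Cdkn2c* (-0.38), an inhibitor of CDK4 and CDK6, *Gadd45a* (-0.43), a growth arrest gene, and *Hbp1* (-0.26), a repressor of cell cycle genes. Each of the 5 had an adjusted p under 0.01. *Ndrg1* (0.074) and *Ndrg2* (0.14) did not pass. At an adjusted p under 0.05, the count of higher genes was 1 with trends with GC content and length removed.

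Genes with and without an E-box had like shares in each direction, given here without a test. Of 1016 tested genes with CACGTG in a promoter, 20.8% were higher and 21.9% lower, and the median was -0.020 as a log2 fold change. Of 7177 tested genes whose promoter entries held no CACGTG, 19.97% were higher and 22.4% lower, with a median of -0.018. Within the activated list, 7 of 10 genes with an E-box and 19 of 26 without were higher.

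**Figure D5:**
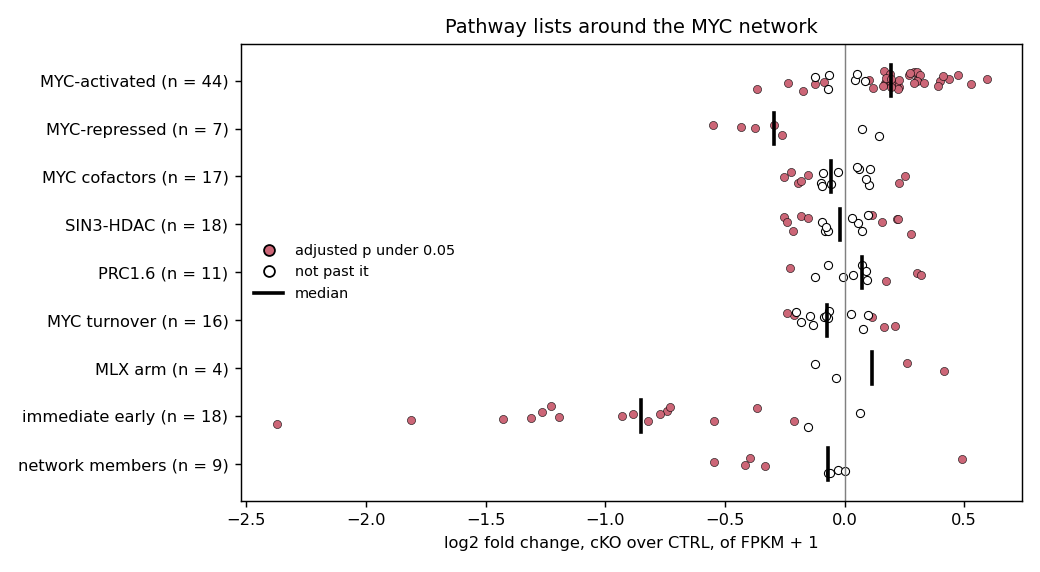
Log2 fold change of FPKM + 1, cKO over CTRL, of the tested genes in each list (rows, with their number), with filled points for an adjusted p under 0.05 and black bars for medians; height within a row is only to separate points. MYC-activated genes centre at 0.20, MYC-repressed genes at -0.29 and immediate early genes at -0.85, and the cofactor lists lie on both sides of 0.

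The cofactor lists held genes called in both directions. Of 17 genes for cofactors bound by MYC, all tested, 2 (11.8%) were higher and 5 (29.4%) lower, beside 19.9% and 20.6% of all genes tested, so the share called in either direction was near the 40.5% of all genes. *Ruvbl1* (log2 fold change 0.23) and *Ruvbl2* (0.25), ATPases of chromatin complexes, rose, while *Hcfc1* (-0.25), a host cell factor that MYC binds, and *Smarca4* (-0.22), the ATPase BRG1, fell. The gene of the histone acetyltransferase scaffold *Trrap* differed by -0.092 on the log2 scale (adjusted p = 0.225). The count of 5 lower became 2 without CTRL replicate 1 or with trends with GC content and length removed, and 3 without CTRL replicate 2.

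The SIN3-HDAC corepressor, through which MXD proteins and MNT silence genes, had 5 of 18 genes higher and 5 lower, 27.8% in each direction beside 19.9% and 20.6% of all genes tested, which is not read as a result about the complex. *Sin3b* rose from 18.9 ± 0.490 to 23.1 ± 0.857 FPKM (0.28 on the log2 scale, adjusted p = 0.00186), and *Hdac1*, a histone deacetylase, rose by 0.23 on the log2 scale. *Brms1l*, a subunit of the complex, rose too (0.22). *Sin3a* was among the lower genes (log2 fold change -0.15, adjusted p = 0.0199). *Ncor1* (-0.25), a nuclear receptor corepressor, *Sap130* (-0.24) and *Rbbp4* (-0.22), a histone chaperone, fell. The count of 5 lower was 3 without CTRL replicate 1, CTRL replicate 3, cKO replicate 2 or cKO replicate 3. It was also 3 with trends with GC content and length removed.

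Of 11 PRC1.6 genes that work with MGA, 3 (27.3%) were higher and 1 (9.09%) lower, beside 19.9% and 20.6% of all genes tested, and the share called in either direction was near the 40.5% of all genes. *Pcgf6*, the PCGF subunit that defines the complex, rose from 14.2 ± 0.193 to 17.8 ± 0.0962 FPKM (0.30 on the log2 scale, adjusted p = 4.8e-04). *L3mbtl2* (0.037) and *E2f6* (-0.069), other defining subunits, did not pass. *Rnf2*, a ubiquitin ligase of all PRC1 complexes, fell (-0.23, adjusted p = 0.0173). *Yaf2* (0.32, adjusted p = 0.0315) and *Cbx3* (0.17, adjusted p = 0.0164) rose, and *Yaf2* lost its call in 9 of 17 alternatives. The 3 higher became 1 without CTRL replicate 1, and the 1 lower became 0 without cKO replicate 2 or 3.

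Of 16 genes that govern MYC protein turnover, 3 (18.8%) were higher and 2 (12.5%) lower, each share below the 19.9% and 20.6% of all genes tested. *Ppp2r5a*, the phosphatase subunit that marks MYC for decay, fell (log2 fold change -0.24, adjusted p = 0.00828). *Fbxw7*, which encodes the ubiquitin ligase subunit that recognizes MYC, measured 1.81 FPKM in CTRL and 1.69 FPKM in cKO LSKs (-0.071, adjusted p = 0.631). The count of 2 lower was 1 without CTRL replicate 1 or 3 or cKO replicate 1 or 3, and 1 with a replicate block. In the MLX arm, a parallel network of glucose-sensing factors, *Mlx* (-0.037) and *Mlxip* (-0.12) did not pass and *Mlxipl* was below the filter. Its response genes *Txnip* (59.1 ± 0.211 to 79.2 ± 2.15 FPKM, log2 fold change 0.42) and *Arrdc4* (0.26) rose. *Arrdc4* did not pass without CTRL replicate 1 or 3 or cKO replicate 1 or 2.

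Of 12 tested neutrophil and monocyte markers, 11 were lower, and *S100a8* did not pass (-0.020, adjusted p = 0.885). Of all genes tested, 20.6% were lower and 19.9% higher, shares that stand beside each marker count given here. The 14 in the list summed to 8931 to 9010 FPKM in CTRL and 4677 to 4764 FPKM in cKO libraries, none of them at 0 in all libraries, with *Elane* (3096 to 1346 FPKM) and *Csf1r* (25.6 to 8.70 FPKM) among the 11 that were lower. Megakaryocyte markers summed to 68.5 to 72.3 FPKM in CTRL and 140 to 144 FPKM in cKO libraries, with 5 of 5 tested higher (10 in the list, *Gp1bb* at 0 in each library). Mast cell and basophil markers went from 112 to 125 FPKM up to 182 to 191 FPKM, with 6 of 8 tested higher and *Tpsab1* at 0 in each library. For T and NK cells, the sum was 362 to 374 FPKM in CTRL and 325 to 329 FPKM in cKO libraries. That fall was carried by *Nkg7* (353 to 280 FPKM), the 1 lower of 3 tested, while *Ccl5* (10.1 to 35.5 FPKM) and *Trbc2* (1.22 to 6.13 FPKM) rose. Below the filter, *Cd3d* had 0.141 FPKM in CTRL and 1.45 FPKM in cKO, *Trac* 0.135 and 0.942 FPKM, and *Cd8a* at most 0.0277 FPKM in a library. B and plasma cell markers summed to 647 to 664 FPKM and 1026 to 1136 FPKM, with 4 of 8 tested higher and 3 lower. *Igkc* (420 to 880 FPKM), which made up most of the sum, *Jchain* (30.4 to 64.0 FPKM) and *Mzb1* (4.58 to 8.99 FPKM) rose. The 3 lower genes were *Ighm* (100.2 to 59.0 FPKM), *Xbp1* (63.2 to 50.6 FPKM) and *Sdc1* (3.31 to 2.26 FPKM). *Sdc1* lost its call in 4 of 16 alternatives. *Pax5* reached at most 0.0372 FPKM and *Ms4a1* 0.0259 FPKM in a library. The part of these cells in the changes of *Mycn* and of the repressor genes was not tested, and in sorted bulk samples fewer cells of a type and less RNA per cell cannot be told apart.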

How the data were processed

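RNA-seq was done on sorted LSK cells of 3 CTRL and 3 cKO preparations. Poly I:C was given in 2 doses per the labels and in 3 per the paper's methods. The submitters' processing notes list HISAT2 2.0.5 and the build mm10, and the counting program and annotation are not given in the sources used here. The authors deposited FPKM values with gene lengths for 54532 genes, 1 column a library. FPKM values were multiplied by gene length and divided by the step of 1 read in each library, estimated from the values themselves. Of values under 2000 reads, 100% then came out as whole reads (tolerance 0.01 reads) in each library, 17571544 to 19894562 reads in all. These were used for read numbers and for voom only.

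The 11552 genes averaging 1 FPKM or more were tested on log2(FPKM + 1) by limma 3.58.1 in R 4.3.3 (lmFit, then eBayes with its trend option). Two-sided p-values were adjusted over all of them (Benjamini-Hochberg). The test was checked on simulated data. The members and lists were chosen with earlier results of these data known. Named were all members, Myh9, neighbours of members, at most 3 genes of a list in each direction by size of change past the threshold, and the 3 genes most correlated with Myc. Genes named beyond this (Cdkn1b, Hbp1, Ndrg1, Ndrg2, Trrap, Sin3a, L3mbtl2, E2f6, Fbxw7, Mlx, Mlxip, Mlxipl, Bmyc, Mycs, and markers not past the threshold or at 0) were chosen after their values were seen. Some genes that this rule names are not reported here. Alternatives were a pseudocount of 0.1, no filter, a mean of at least 5 FPKM, median-of-ratios, quantile and TPM scaling, no moderation, a replicate block, moderation with the trend option off, omission of every library in turn, voom with a mean of at least 10 reads and, chosen after seeing the data, removal of trends with GC content and length. Promoters came from RefSeq (GRCm38.p6), the assembly behind mm10. Tables and figures were made in Python 3.11.15 using pandas 2.3.3, numpy 2.4.6, scipy 1.17.1 and matplotlib 3.10.9.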

Additional observations from a re-analysis of the deposited data

How the results depend on the processing

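*Mycn*, *Mxd1*, *Mxi1*, *Mnt* and *Mxd4* kept their direction and their adjusted p under 0.05 in each alternative that tested them, including every fit that left out 1 library. Their log2 fold changes ranged from 0.44 to 0.57 for *Mycn*, -0.75 to -0.46 for *Mxd1*, -0.48 to -0.37 for *Mxi1*, -0.47 to -0.33 for *Mnt* and -0.37 to -0.24 for *Mxd4*. *Mxd1*, *Mxd3* and *Mga* were not tested with a mean of at least 5 FPKM. The count of lower members was 3 to 5, and 1 was higher throughout. The log2 fold change of *Myc*, near 0, was -0.028 after quantile normalization, -0.017 as TPM and -0.019 with trends with GC content and length removed, and -0.015 to 0.014 over the fits without 1 library, with adjusted p from 0.463 to 0.940 over its alternatives. *Mga* had 0.060 with those trends removed, and *Mxd3* -0.16 to 0.035 without 1 library. The cause was not tested. Without the filter, *Mycl* had an adjusted p of 0.0205. Deviations of same-numbered libraries from their group means correlated at -0.026 to -0.0046, so the numbers share no more than a number. The replicate block left 4 members lower and 1 higher, as without it, with 46 list genes higher and 34 lower (48 and 39 without the block). Depth limits *Mycl* most, with 14 to 52 reads a library.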

Other observations

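*Pvt1* (ENSMUSG00000097039), the long noncoding RNA gene next to *Myc*, begins 47612 bases to its right on the same strand. Too low for the filter, it had 92, 83 and 74 reads in CTRL and 162, 114 and 125 reads in cKO libraries, and the means were 0.629 ± 0.0673 and 1.03 ± 0.182 FPKM. The groups did not overlap for *Pvt1* and did overlap for *Myc*.

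*Bmyc*, a gene related to *Myc* that is not in the member list, measured 11.0 ± 1.58 FPKM in CTRL and 9.15 ± 0.845 FPKM in cKO LSKs (log2 fold change -0.24, adjusted p = 0.114, limma). *Mycs*, another such gene, had 0 reads in each library, which allows up to 3 reads.

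Of 7168 other genes averaging 5 FPKM or more, those most like *Myc* over the 6 libraries were *Gm3226* (Pearson r 0.966, Spearman rho 1.00), *Ssbp3* (r 0.947, rho 0.714) and *Zfp106* (r 0.944, rho 0.771). Without the 2 libraries farthest from the median of *Myc*, r was 0.997, 0.855 and 0.932. With *Myc* at the same level in both groups, these values follow differences of a few FPKM between libraries and are given without a test.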
